A study of Mus musculus with 13 samples.

Results

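The cells described here were conventional type 1 dendritic cells of the mouse lung, picked out by transcripts of Xcr1 and Clec9a. A cell was kept where at most 10% of its transcripts were mitochondrial, where Xcr1 and Clec9a together gave at least 2 UMIs (unique molecular identifiers, each standing for 1 captured transcript), where H2-Aa, H2-Ab1 and Cd74, which encode MHC class II chains and the invariant chain, gave at least 10 UMIs together, and where Cd79a, Siglech and Cd209a, marks of B cells, plasmacytoid dendritic cells and type 2 dendritic cells, gave none. The counts of these 8 genes chose the members, so their levels below only describe the choice. Of 33618 barcodes under the mitochondrial limit, among 37344 in the matrix, 384 met the rule, a share of 1.14%.

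The study asked how eosinophils take part in emphysema caused by porcine pancreatic elastase (PPE), an enzyme that degrades lung elastin, in C57BL/6 mice. By their labels, 4 of the 13 samples were lung cells for single-cell RNA sequencing, 1 each from a control lung, a PPE-emphysema lung, a lung in the PPE-recovery phase and an asthma model sensitised to ovalbumin. The other 9 were 3 each of acute injury, con and emphysema, and were not analysed here. The matrix held 7 libraries known only by the number at the end of each barcode, and nothing in the labels ties a number to a model, so no comparison between models was made. Each single-cell group came from a single mouse. Libraries outnumber the single-cell samples, so some may share a mouse, and the whole matrix was treated as 1 sample. Values are given library by library, and all 95% intervals are exact intervals that cover counting error only.

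Conventional type 1 dendritic cells take up dying and infected cells and present the fragments on MHC class I to CD8+ T cells, which is called cross-presentation. The transcription factors IRF8 and BATF3 are needed for their development. XCR1 is the receptor for XCL1, a chemokine made by natural killer and CD8+ T cells, and CLEC9A is a lectin that binds the actin filaments laid bare in dead cells. In the lung these cells lie in and under the airway epithelium, and after they take up antigen they follow CCR7 to the draining lymph node.

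Libraries 1, 2, 3 and 7 held 101, 165, 70 and 43 of the cells. Those were 2.10% (95% binomial interval, Clopper-Pearson, 1.72 to 2.55), 2.16% (1.85 to 2.52), 1.36% (1.07 to 1.72) and 1.30% (0.944 to 1.75) of their barcodes under the mitochondrial limit. In the same libraries 16, 63, 23 and 35 further barcodes were left out for a UMI of Siglech, so the shares depend on that limit. They also depend on how many barcodes the matrix kept. Libraries 1 to 7 held 6000, 8747, 5940, 3000, 5000, 5000 and 3657, and how these numbers were set is not known. Libraries 4, 5 and 6 held 1, 4 and 0 cells, and the count of 0 in library 6 allows a share of up to 0.0615%, taken as 3 cells of its barcodes (exact upper limit 0.0755%). The intervals of libraries 1 and 2 overlapped each other and lay above those of libraries 4, 5 and 6, which are too thinly filled to be described by gene. A cell gave a median of 17817.5 UMIs (lowest 1141, highest 47702) and 3641 genes, and the 384 cells gave 7126022 UMIs in all. By library, the median was 18302, 16653, 16741.5 and 19940 UMIs in libraries 1, 2, 3 and 7. The cells were large against the median of 6684.5 UMIs of all barcodes under the mitochondrial limit, and 104 of the 384 were over the upper limits that the study's filter of the mean and 2 standard deviations gives on this matrix (21736 UMIs or 4961 genes). Doublets were not called, and 280 cells (72.9%) remained within those limits. Across the series 153 barcode sequences occurred in more than 1 library. These included the sequences of 2 of the 384 cells, and no 2 of the cells shared a sequence.

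The label was checked with 15 genes of the type 1 program that the rule did not read: Flt3, Irf8, Batf3, Itgae, Cadm1, Wdfy4, Tlr3, Cd24a, Naaa, Ifi205, Gcsam, Rab7b, Snx22, Sept3 and Ppt1. A cell had a UMI of a median of 13 of them. The median was 5 in 466 cells chosen by Cd209a (at least 2 UMIs of Cd209a, the same MHC class II limit and no UMI of Xcr1, Clec9a, Cd79a or Siglech), and 4 in 47 cells with at least 3 UMIs of Siglech and none of Xcr1, Clec9a or Cd79a. These numbers also depend on depth, which was a median of 17817.5 UMIs in the 384 cells, 13564 in the Cd209a cells and 8773 in the Siglech cells. Most of the 384 cells carried the program, but 48 of them (12.5%) had a UMI of at most 8 of the 15 genes. Of these 48, 45 had only 2 to 4 UMIs of Xcr1 and Clec9a, and they fell as 24, 16, 7 and 1 in libraries 1, 2, 3 and 4. Chil3, a chitinase-like protein that alveolar macrophages make in bulk, stood at 16407 UMIs per 1000000 UMIs (CPM) when the 48 cells were summed and at 1310.2 CPM in the other 336. A minority of cells carried that sum: 20 of the 48 were over 1000 CPM (15, 4 and 1 in libraries 1, 2 and 3), as were 18 of the 336, and the median over single cells was 399.6 and 68.1 CPM. Irf8 stood the other way, at 312 and 1550.4 CPM, with medians over single cells of 261 and 1586 CPM. Mrc1, the mannose receptor of macrophages, stood at 395 and 53.7 CPM and the lipid-binding gene Fabp4 at 178 and 10.5 CPM, with a UMI in 26 and 14 of the 48 cells. By their count of identity genes the 48 cells do not bear out the label, but they were not alike. Irf8 was over 1000 CPM in 8 of them and not in 40, and Chil3 was at or under 1000 CPM in 28. The count also depends on depth, and some of the 48 were shallow, the lowest at 1141 UMIs. The comparisons below were repeated in the 287 cells with at least 5 UMIs of Xcr1 and Clec9a (64, 136, 47 and 38 in libraries 1, 2, 3 and 7).

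**Figure D1:**
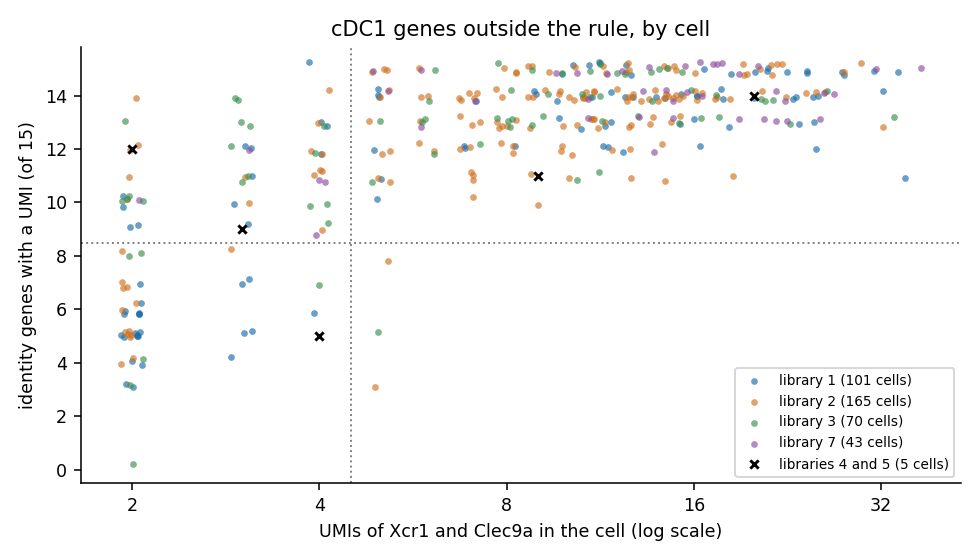
Each point is 1 of the 384 cells, with its UMIs of Xcr1 and Clec9a on a log axis and the number of 15 type 1 genes outside the rule of which it had a UMI, coloured by library. Dotted lines part cells with at most 8 genes and cells with at least 5 UMIs, and of the 48 cells at 8 genes or fewer only 3 lie to the right.

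Values on both sides of the limit of 2 UMIs differed by gene. Barcodes that met every other limit numbered 5752 with no UMI of Xcr1 and Clec9a, 172 with 1 and 52 with 2, and 45 had 3 to 4 and 287 had 5 or more. In that order Irf8 stood at 139, 262, 485, 1047 and 1586 CPM. Flt3, the receptor for the growth factor of dendritic cells, stood at 8.40, 21.4, 58.7, 125 and 186 CPM. Cadm1 stood at 86.3, 38.0, 42.7, 120.1 and 250.4 CPM. For Irf8 and Flt3, cells with 2 UMIs lay between those with 1 UMI, just outside the rule, and those with 3 or more, whereas Cadm1 was higher with 0 UMIs than with 1 or 2. Their median of the 15 genes was 6, against 5 with 1 UMI and 11 with 3 to 4.

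Xcr1, at chr9:123852315-123862029 on the minus strand (mm10), stood at 348 CPM (95% interval 334 to 362), and 329 of the 384 cells had a UMI of it. Clec9a, at chr6:129408862-129424763 on the plus strand, stood at 228 CPM (95% interval 217 to 239.5) with a UMI in 361 cells, and 306 cells had both. The median cell held 10 UMIs of the pair, and the highest 36. In libraries 1, 2, 3 and 7 Xcr1 stood at 353, 329, 303 and 467 CPM and Clec9a at 206, 234, 235 and 259.7 CPM, so that library 7 was highest for both.

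The level of genes outside the rule was read in each of the 4 filled libraries. Irf8 (chr8:120736358-120756694, plus strand) stood at 1423 CPM (95% interval 1395 to 1450.5), and at 1452, 1335, 1205 and 1899.8 CPM in libraries 1, 2, 3 and 7. Flt3 stood at 149, 151, 176 and 247 CPM and Itgae, the alpha chain of the integrin CD103 that binds E-cadherin, at 293, 229, 274 and 405 CPM. Library 7 was again highest for all 3 genes, and the order of the other libraries changed from gene to gene. Tlr3, a sensor of double-stranded RNA, stood at 127, 184, 156 and 233 CPM and was lowest in library 1, which also held the largest number of cells low in the identity genes. Batf3 stood at 159, 117, 112 and 187 CPM. Cd207, the lectin langerin, which marks type 1 cells of the lung and Langerhans cells of the skin, stood at 52.4, 145, 122 and 103 CPM, with a UMI in 171 of the 384 cells (44.5%) and in 1 of 1368 cells with Cd3e, which are T cells and should lack it (0.0731%, at a median of 6784 UMIs). Its level in library 1 was the lowest, and in the cells with at least 5 UMIs of the rule genes it was 71.4, 160.2, 128 and 103 CPM.

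**Figure D2:**
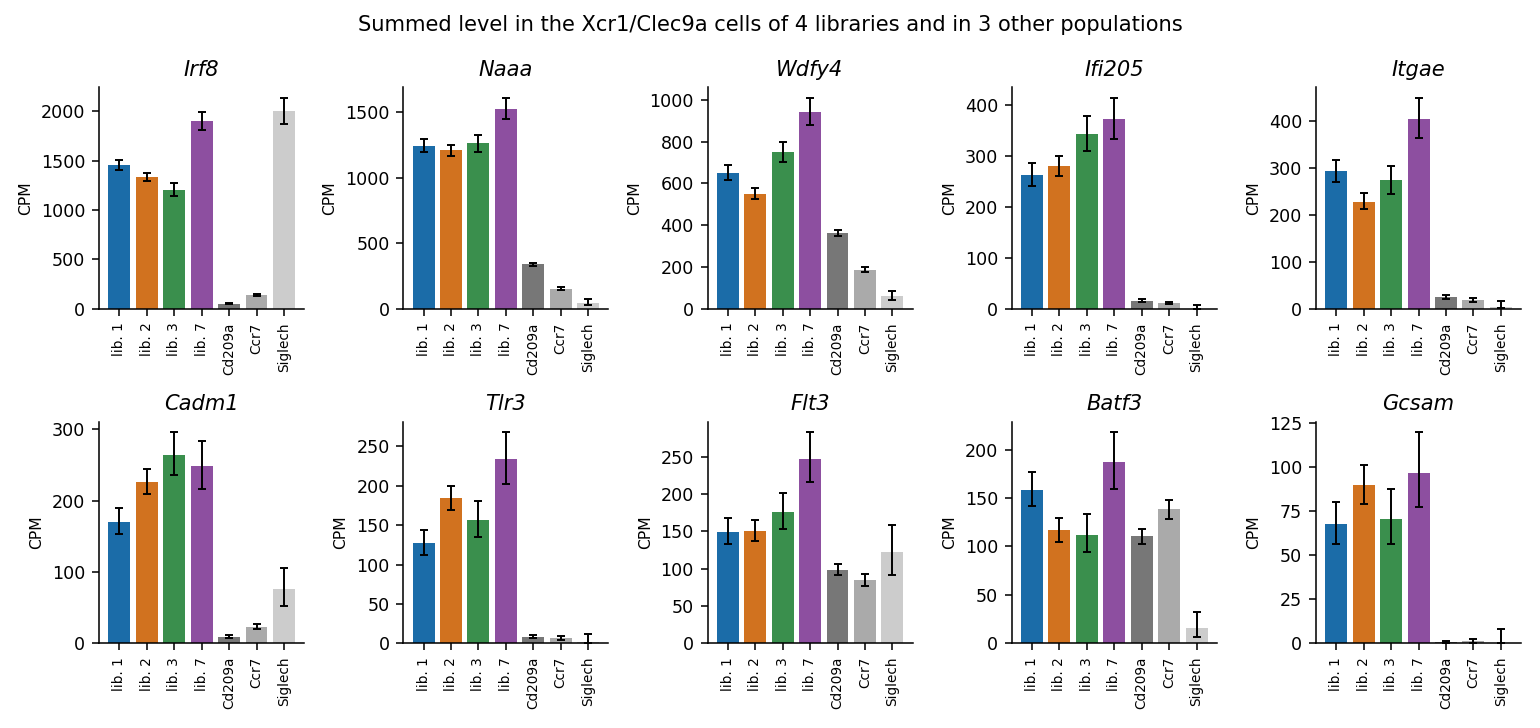
Bars give the level in CPM, from 0, of 10 type 1 genes in the cells of libraries 1, 2, 3 and 7 and in the Cd209a, the Ccr7, Ccl22 and Fscn1, and the Siglech cells of all libraries, with exact Poisson 95% intervals. Irf8 lies between 1205 and 1899.8 CPM in the 4 libraries and as high only in the Siglech cells, whereas Batf3 and Flt3 are also present in the Cd209a cells.

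Outside ribosomal and mitochondrial genes and those of the rule, the transcripts of highest level (a transcript gives 1 UMI in this 3′ assay, whatever its length) were Tmsb4x, which encodes thymosin beta-4, at 36319 CPM, Cst3, a cysteine protease inhibitor abundant in dendritic cells, at 22787 CPM, Actb, a cytoskeletal actin, at 15941 CPM, and Malat1, a nuclear noncoding RNA, at 14945 CPM. The MHC class II beta chain H2-Eb1 stood at 7147 CPM. The prosaposin gene Psap, whose product helps lysosomal lipid breakdown, stood at 4149.9 CPM. Lyz2, the lysozyme of myeloid cells, stood at 3261 CPM.

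The closest population for comparison was that of the 466 Cd209a cells, which gave 7060868 UMIs with a median of 13564 a cell, and of which 102, 159, 72 and 85 lay in libraries 1, 2, 3 and 7. Another 27, 10 and 11 lay in libraries 4, 5 and 6, which held 1, 4 and 0 of the Xcr1 cells, so the populations mix the libraries differently, and no test was made. A gene counted as higher or lower where summed CPM differed 2-fold or more, among 8602 genes with at least 100 UMIs in both populations together. Of these, 337 (3.92%) were higher and 528 (6.14%) lower in the Xcr1 cells, and the median gene differed by -0.07 on the log2 scale. Requiring the same direction in all 4 filled libraries left 286 (3.32%) higher and 446 (5.18%) lower. In the cells with at least 5 UMIs of the rule genes, 318 genes were higher and 687 lower, 278 of the 337 and 499 of the 528 among them. Lower genes were thus more numerous there than over the 384 cells, and the counts by list in them stand beside these totals. Counts by list over the 384 cells stand beside the shares of 3.92% higher and 6.14% lower.

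Of the 24 genes of the type 1 identity list, which holds the 15 genes above, 22 were tested, 17 were higher and 0 lower, with a median log2 ratio of 2.82 against -0.07 over all genes. Irf8 stood at 50.7 CPM in the Cd209a cells, 28.1-fold (95% interval 25.2 to 31.3) below the Xcr1 cells, and at 1999.8 CPM in the Siglech cells. Plasmacytoid dendritic cells are known to use Irf8 too. Cadm1, an adhesion molecule of the immunoglobulin family, was 24.0-fold (95% interval 18.6 to 31.3) higher, Tlr3 20.7-fold (95% interval 15.9 to 27.4) and Itgae 11.01-fold (95% interval 9.43 to 12.9). These ratios had the same direction in each of the 4 libraries. Naaa, which hydrolyses fatty acid ethanolamides in the lysosome, stood at 1260.5 CPM against 339 CPM, and Ppt1, a lysosomal enzyme that strips palmitate from proteins, at 792 against 65.6 CPM. The 5 genes that stayed within 2-fold were Flt3, Batf3, Wdfy4, Zbtb46 and Plbd1. Zbtb46, a transcription factor that all conventional dendritic cells share, stood at 50.7 and 49.1 CPM, a ratio of 1.03 (95% interval 0.887 to 1.20). Batf3, by contrast with Irf8, differed only 1.26-fold (95% interval 1.14 to 1.38).

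Of the 12 markers of type 2 dendritic cells, 10 were tested, and 9 were lower and 0 higher, with a median log2 ratio of -4.25. Mgl2, a galactose-binding lectin, stood at 54.7 CPM against 1386 CPM, S100a4, a calcium-binding protein, at 124 against 2314 CPM, and Itgam, the integrin chain CD11b, at 15.2 against 187 CPM. Cd209b, Cd209c, Cd209d and Cd209e are relatives of the rule gene Cd209a, so their reads may be hard to tell from its own and their ratios are uncertain.

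By ratio, the genes that stood highest in all 4 libraries were Gcsam, Cd207, Ttc39a, A530099J19Rik, Gm11837, Plce1, Cyp8b1, Homer2, Naalad2, 2310031A07Rik, Cxcr3, Gm3336, Dnase1l3, Tlr12 and Gm38832. Gcsam, a signalling adaptor first known from germinal centre B cells, was 143-fold (95% interval 55.6 to 527) higher and Cd207 95.6-fold (95% interval 48.3 to 222). Cxcr3, the receptor for Cxcl9 and Cxcl10, was 47.4-fold (95% interval 21.5 to 130.2) higher and Dnase1l3, a secreted enzyme that degrades DNA, 45.7-fold (95% interval 29.7 to 74.1). Plce1, a phospholipase C, had no UMI in the Cd209a cells and was 60.1-fold higher against a floor of 3 counts over that population. Cyp8b1, a sterol hydroxylase of bile acid synthesis, had none either and was 56.8-fold higher against that floor. Without the floor their 95% lower limits were 48.4 and 45.7. At the other end stood Cd209d, Ddr1, Aqp3, Cd7, Il1rl1, Cd209e, Smim5, Cd209b, Cd209c, Il18rap, Clec10a, Lamp3, Cyp7b1, Ehf and Ms4a4c. Ddr1, a receptor for collagen, was 119-fold (95% interval 40.3 to 579) lower and rested on 3 UMIs in the Xcr1 cells. Il1rl1, the receptor for the alarmin IL-33, was 69.5-fold (95% interval 33.5 to 174) lower and the lectin Clec10a 41.9-fold (95% interval 30.1 to 60.0). Lamp3 turned to a log2 ratio of 0.27 in the cells within the upper limits of the filter.

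**Figure D3:**
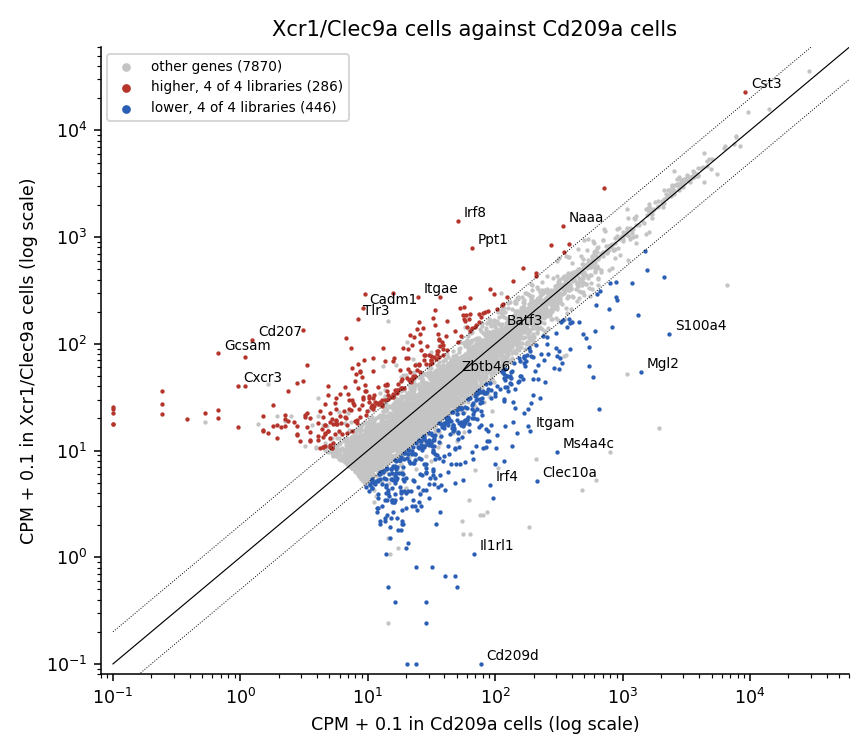
Each point is 1 of 8602 genes, with its level in CPM plus 0.1 in the Cd209a cells and in the Xcr1 cells, both axes logarithmic, the solid line marking equal levels and the dotted lines 2-fold. Coloured points are the 286 genes higher and the 446 lower in all 4 libraries, with Gcsam, Cd207 and Irf8 far above the lines and Il1rl1, Clec10a and Mgl2 far below.

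Among 20 transcription factors of dendritic cells, 3 were higher (Irf8, Id2 and Mycl) and 4 lower (Irf4, Zeb2, Batf and Bcl11a). Over all 8602 genes the shares were 3.92% and 6.14%. In the cells with at least 5 UMIs of the rule genes, 3 and 4 factors were again higher and lower, beside 318 and 687 over all genes. Mycl, the Myc family member used by dendritic cells in place of Myc, stood at 73.0 against 10.9 CPM. Id2, an inhibitor of E proteins, stood at 861 against 378 CPM. Irf4, which type 2 cells need, stood at 4.63 against 90.2 CPM and was 19.5-fold (95% interval 13.7 to 28.5) lower, and the repressor Zeb2 stood at 77.6 against 304 CPM.

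Promoters are shown for the pair of genes that define the cells and for 2 genes outside the rule that were chosen because their windows held a searched motif. The sequences are the 250 bases before the transcription start in RefSeq (GRCm38.p6), written 5′ to 3′ on the strand of the gene, with the motif in capitals. The motifs were TGANTCA, to which AP-1 and BATF family proteins bind, the interferon-stimulated response element (GAAA, any 2 bases, GAAA) and the composite element of ETS and IRF proteins (GGAA, any 2 bases, GAAA), each on both strands. The last 2 motifs differ in their opening bases, so no single stretch of one strand matches both. The windows of Xcr1 (chr9:123862030-123862279, minus strand) and Clec9a (chr6:129408612-129408861, plus strand) held none of them. That of Cd207 (chr6:83677858-83678107, minus strand) held TGANTCA in the last 7 bases before the start, and that of Ifi205 (chr1:174031756-174032005, minus strand), an interferon-inducible gene of the HIN-200 family, held the interferon-stimulated response element 134 bases before it.
Xcr1: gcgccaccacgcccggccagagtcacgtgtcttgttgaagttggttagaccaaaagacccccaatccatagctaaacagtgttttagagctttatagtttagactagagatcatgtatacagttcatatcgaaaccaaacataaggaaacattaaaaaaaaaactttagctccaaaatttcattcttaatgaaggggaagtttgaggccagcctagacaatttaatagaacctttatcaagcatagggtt
Clec9a: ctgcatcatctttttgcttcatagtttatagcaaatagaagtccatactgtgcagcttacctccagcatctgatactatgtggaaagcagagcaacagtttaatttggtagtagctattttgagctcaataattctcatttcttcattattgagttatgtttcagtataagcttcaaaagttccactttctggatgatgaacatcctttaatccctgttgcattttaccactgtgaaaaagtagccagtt
Cd207: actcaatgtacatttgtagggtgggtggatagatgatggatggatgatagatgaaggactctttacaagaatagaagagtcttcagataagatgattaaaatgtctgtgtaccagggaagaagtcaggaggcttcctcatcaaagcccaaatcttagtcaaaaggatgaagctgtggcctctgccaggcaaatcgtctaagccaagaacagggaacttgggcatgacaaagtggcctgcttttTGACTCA
Ifi205: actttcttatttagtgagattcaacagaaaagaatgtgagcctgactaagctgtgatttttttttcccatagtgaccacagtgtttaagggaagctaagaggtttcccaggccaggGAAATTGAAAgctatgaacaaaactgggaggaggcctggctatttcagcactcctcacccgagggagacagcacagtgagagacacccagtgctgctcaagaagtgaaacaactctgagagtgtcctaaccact

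Of 27025 genes in the promoter table (32851 windows), 7.82% had TGANTCA in a window, 3.46% the interferon-stimulated response element and 2.68% the ETS and IRF element. Of the 8602 genes compared, 6834 had a window, and the shares were 5.46%, 3.59% and 2.56%. Of the 286 genes higher in all 4 libraries, 224 had a window, and the shares were 8.04%, 4.46% and 2.23%. Of the 446 genes lower in all 4, 338 had a window, and the shares were 8.28%, 5.92% and 3.25%. The shares of the higher and the lower genes lay near one another, and of the 15 highest genes only Cd207 had any of the motifs, among 11 with a window. A match is a description of letters and does not show that a factor binds there.

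Most genes of antigen presentation stayed within 2-fold, 17 of 21 of class I and 9 of 10 of class II. So did most genes of any kind, as only 3.92% of all 8602 were higher and 6.14% lower. Of 21 genes of MHC class I and cross-presentation, 4 were higher and 0 lower: Tap1 and Tap2, which form the peptide transporter, Psmb9, a subunit of the immunoproteasome, and Rab43, a small GTPase of vesicle traffic. Tap1 stood at 238 against 114 CPM, and at 306, 196, 227 and 240.3 CPM in libraries 1, 2, 3 and 7. Psmb9 stood at 512 against 166 CPM and Rab43 at 88.8 against 38.8 CPM. Wdfy4, required for cross-presentation of cell-bound antigen, was 1.83-fold (95% interval 1.74 to 1.92) higher and so within the limit of 2. In the cells with at least 5 UMIs of the rule genes, 7 class I genes were higher and 1 lower, beside 318 and 687 over all genes. Of 10 genes of class II presentation outside the rule, 0 were higher and 1 was lower, H2-DMb2, the beta chain of the peptide-loading factor H2-M, at 73.1 against 325 CPM. Among the cells with at least 5 UMIs, 3 of the 10 were lower, H2-DMb2 together with Ctss and Lgmn, proteases that process antigen in macrophages and dendritic cells, at log2 ratios of -1.35 and -1.43.

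Of 17 sensors of nucleic acids and microbes tested, Tlr3, Tlr11 and Tlr12 were higher and Tlr1 and Ddx58 lower. For this list and the next, the shares over all 8602 genes were 3.92% higher and 6.14% lower. Tlr11 and Tlr12, which bind profilin of protozoan parasites, stood at 23.6 and 23.7 CPM against 4.11 and 0.567 CPM. Of 14 uptake receptors and lectins tested, Cd36, Mertk, Havcr2, Ly75 and Cd207 were higher and Clec10a and Mrc1 lower. Cd36, a scavenger receptor for lipids and apoptotic cells, stood at 275 against 36.5 CPM, Ly75, the endocytic receptor DEC-205, at 52.5 against 7.93 CPM, and Havcr2, the receptor TIM-3, at 132 against 63.7 CPM. Mertk, a receptor by which macrophages take up dying cells, turned to a log2 ratio of -0.055 in the cells with at least 5 UMIs of the rule genes. In those cells 4 uptake receptors were higher and 5 lower, and 3 sensors were higher and 6 lower, beside 318 and 687 over all genes.

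Of 10 chemokine receptors tested, Ccr9 and Cxcr3 were higher and Cx3cr1, Ccr1 and Cxcr2 lower. Beside the lists of this paragraph stand 3.92% higher and 6.14% lower over all 8602 genes. Ccr2, by which cells leave the blood, stood within 2-fold, at 467 against 611 CPM. Of 18 cytokines and chemokines, Cxcl9, Ccl5, Il12b and Il18 were higher, and Ccl17, Ccl3, Ccl4, Ccl9, Il1b and Il6 lower. Il1b, the main interleukin-1 of myeloid cells, stood at 256 against 908 CPM, and Ccl17, which draws CCR4+ T cells, at 495 against 1545 CPM. Il12b, a subunit of interleukin-12, stood at 18.2 against 0.425 CPM. Ccl5 stood at 96.1 against 36.3 CPM over all cells, but its log2 ratio was -1.48 in the cells with at least 5 UMIs of the rule genes. In those cells 2 genes of the list were higher and 7 lower, beside the same 318 and 687 over all genes. Of 17 genes of adhesion and co-signalling, 5 were higher, among them Btla, an inhibitory receptor, at 123 against 25.6 CPM, and Cd86, which costimulates T cells, at 193 against 80.2 CPM. Of 11 cytokine receptors, 0 were higher and Csf1r and Il2rg were lower. Of 26 genes of the mature dendritic cell program, 7 were higher and 5 lower, and 5 and 9 in the cells with at least 5 UMIs, again beside 318 and 687 over all genes.

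Interferon-stimulated genes stood mostly on the other side. Of 12 tested, 7 were lower (Isg15, Ifit3, Rsad2, Oasl2, Irf7, Zbp1 and Isg20) and Gbp2 was higher, with a median log2 ratio of -1.30. Over all 8602 genes 6.14% were lower and 3.92% higher, with a median of -0.07. Oasl2, of the oligoadenylate synthetase family, stood at 6.60 against 32.4 CPM and Isg15, a ubiquitin-like protein, at 7.58 against 22.7 CPM. Gbp2, a guanylate-binding protein, kept no direction, with log2 ratios of -0.55 in cells with at least 5 UMIs of the rule genes and -0.095 without library 1. The list summed to 489.8, 333, 300.05 and 287 CPM in libraries 1, 2, 3 and 7, against 310.1, 447, 493 and 352 CPM in the Cd209a cells, so library 1 went the other way. Among the cells with at least 5 UMIs, where 0 genes of the list were higher and 7 lower, the sums were 283, 324, 257 and 265 CPM, and library 1 lay below its Cd209a cells. All 16 cell cycle genes tested lay within 2-fold, with a median log2 ratio of 0.02. The list summed to 1435, 1226, 1361 and 593 CPM in libraries 1, 2, 3 and 7, against 2708, 801, 1126 and 757 CPM in the Cd209a cells, so library 1 and library 7 were lower in the Xcr1 cells and libraries 2 and 3 higher.

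Markers of other cell types were present in the cells at unequal levels. Of 5 alveolar macrophage markers tested, 3 were higher than in the Cd209a cells (Chil3, Ear1 and Krt79), and the list of 8 summed to 8438, 1109.9, 1216 and 1339 CPM in libraries 1, 2, 3 and 7, most of it Chil3. In the cells with at least 5 UMIs of the rule genes the sums were 2232, 819, 972 and 1459 CPM, and the cell with the most Chil3 UMIs in each library held 88.3%, 21.4%, 48.6% and 89.8% of them. There 2 of the 5 markers were higher, Ear1 and Krt79, and Fabp4 was lower, while Chil3 lay within 2-fold, at a log2 ratio of 0.56. Of 7 C1q macrophage markers tested 1 was higher (Ms4a7), and their list, led by Apoe, summed to 1436, 815, 425 and 10.3 CPM and, in the cells with at least 5 UMIs, to 84.4, 828, 96.0 and 10.03 CPM. In those cells Ms4a7 was again higher, and 2 markers of the list were lower, C1qb among them. Fibroblast markers, led by Mgp, summed to 29.7, 849, 44.2 and 14.8 CPM, and endothelial markers, led by Cldn5, to 13.6, 243, 15.3 and 98.0 CPM, both highest in library 2. Epithelial markers, led by Scgb1a1, summed to 253, 579.7, 1264 and 164 CPM, against 254, 2566, 613 and 35509 CPM in the Cd209a cells, where library 7 was far above the others. Neutrophil markers summed to 32.3, 262, 271 and 25.1 CPM, against 16.8, 295, 606 and 70.5 CPM. Of 6 neutrophil markers tested, 5 were lower over all libraries than in the Cd209a cells, while in library 1 the list sum was higher in the Xcr1 cells. Of 7 monocyte markers 3 were lower and Treml4 higher, and of 7 epithelial markers 5 were lower. With at least 5 UMIs of the rule genes, 6 neutrophil and 4 monocyte markers were lower. All 4 erythroid markers tested were lower over all libraries, but in libraries 1, 2, 3 and 7 alone their list summed to 2.52, 5.34, 0 and 0 CPM, against 2.24, 7.88, 3.07 and 0.698 CPM, so nearly all of that difference lay in libraries 4, 5 and 6. Of 5 endothelial markers 0 passed 2-fold either way. The epithelial genes Scgb1a1 and Scgb3a2 turned to log2 ratios of 0.49 and 0.85 without library 7, and within the upper limits of the filter Sftpc, Sftpa1, Scgb1a1 and Scgb3a2 turned to 0.75, 0.091, 0.74 and 1.21. The part of these transcripts in the differences between libraries was not tested.

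Markers of lymphocytes and red cells were present at low to moderate levels. The T cell list summed to 59.0, 47.1, 8.50 and 1.14 CPM in libraries 1, 2, 3 and 7. The B cell list, led by Ighm, summed to 108, 152, 132 and 137 CPM, and to 139.9, 149.7, 133 and 135 CPM in the Cd209a cells. Cd3e, a chain of the T cell receptor complex, had a UMI in 5 of the 384 cells, and 4 cells had at least 5 UMIs of Cd3e or Trac. Cd8a, carried by type 1 cells of the spleen and by T cells, had a UMI in 19 cells and stood at 5.19 CPM (95% interval 3.66 to 7.16). The red cell genes Alas2 and Car1 were at 0, and the erythroid list summed to 35.2 CPM over all cells, most of it in the 5 cells of libraries 4 and 5. Of 6 markers of basophils and mast cells, 5 were at 0. Of 3 plasmacytoid markers tested 2 were higher than in the Cd209a cells, Ccr9 and Cd300c. Their list, led by Tcf4, summed to 80.1, 159.8, 95.2 and 132 CPM, against 251, 168, 148 and 179 CPM. Cd300c stood at 14.6 against 4.53 CPM and Tcf4 at 90.1 against 172 CPM. The plasmacytoid markers Klk1 and Ly6d stood at 0 and 0.281 CPM. In the barcodes left out for a UMI of Siglech they stood at 87.2 and 83.3 CPM, so their low levels follow in part from the rule. Ccr9, which plasmacytoid cells also express, stood at 17.4 against 4.53 CPM in the Cd209a cells.

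The cells were not uniform among themselves. With at least 2 UMIs of Mki67, Top2a, Birc5 and Cdk1, genes of dividing cells, as the limit, 105 of 384 cells (27.3%, 95% interval 22.9 to 32.1) were counted as cycling. By library these were 36, 42, 20 and 7 cells, or 35.6%, 25.5%, 28.6% and 16.3% of the cells in libraries 1, 2, 3 and 7. The same limit took 22.5% of the Cd209a cells and 12.5% of 1368 cells with Cd3e, which were shallower, with a median of 6784 UMIs. The class is a range of counts and not a type, since 31 cells had exactly 2 of these UMIs, 64 had exactly 1 and 67 had at least 4. Depth moved with it, as the cycling cells had a median of 23628 UMIs and the others 16367, and within the upper limits of the filter the share was 16.1%. In the cells with at least 5 UMIs of the rule genes it was 31.4%.

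Cell cycle genes that did not enter the class stood higher in the cycling cells. Stmn1, which destabilises microtubules, stood at 705 against 33.2 CPM, Rrm2, a subunit of ribonucleotide reductase, at 129.6 against 2.56 CPM, and Tyms, thymidylate synthase, at 91.0 against 8.30 CPM. Irf8 and Naaa, genes of the type 1 program outside the rule, were at similar levels in both, at 1476 and 1395 CPM and at 1396 and 1191 CPM. Xcr1 stood at 367 and 338 CPM, but it chose the cells, so its level only describes the choice. The median number of the 15 identity genes was 14 in the cycling cells and 13 in the others.

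Activated dendritic cells raise Ccr7, the chemokine receptor for lymph node homing, the actin-bundling gene Fscn1 and the chemokine Ccl22. With at least 2 UMIs of the 3 genes together, 60 cells (15.6%, 95% interval 12.1 to 19.7) qualified, 14, 22, 19 and 4 of them in libraries 1, 2, 3 and 7. Of these 60, 54 had a UMI of Ccl22 and 44 had fewer than 2 UMIs of Ccr7, so the class was mostly one of Ccl22. A limit of 2 UMIs of Ccr7 alone, set after these values had been seen, kept 16 cells (4.17%, 95% interval 2.40 to 6.68). The same limit took 8.15% of the Cd209a cells and 39.0% of the cells with Cd3e. Among the Xcr1 cells with no UMI of Cd3e, Cd79b, S100a8, C1qa, Sftpc and Hbb-bt the share was 2.03%. Of the 16, 12 lay in library 2, 2 in library 3 and 1 each in libraries 1 and 4. Ccr7 separated the cells sharply, with 366 of 384 at 0, 2 at 1 and the 16 between 2 and 73 UMIs.

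In the 16 cells against the other 368, Ccr7 itself stood at 1299 and 0.293 CPM by choice. Fscn1 stood at 240.4 against 0.732 CPM and Apol7c, an apolipoprotein L of dendritic cells, at 381 against 1.61 CPM, each with a UMI in 4 of the 16 cells. Serpinb6b, an inhibitor of granzymes, had a UMI in 13 cells (447 against 47.6 CPM) and Relb, an NF-kappaB subunit, in 10 (217 against 26.1 CPM). Serpinb6b and Relb were thus spread over most of the 16 cells, whereas Fscn1 and Apol7c came from 4. Il12b stood at 287 against 6.45 CPM, from 7 of the 16 cells, which held 66.2% of all its UMIs in the 384. Ccl5 stood at 2037 against 10.99 CPM, and the 16 held 89.1% of its UMIs, but 68.2% of their Ccl5 came from 1 cell. Il4i1, an amino acid oxidase, stood at 284 against 14.5 CPM, from 8 of the 16 cells, and Cd274, the ligand PD-L1, at 124 against 31.6 CPM. Ccl17 stood at 401 against 499 CPM, so this chemokine did not follow Ccr7.

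Some genes of the type 1 program stood lower in the 16 cells and others did not. Irf8 stood at 771 against 1451 CPM, and Naaa at 488 against 1294 CPM. Itgax, the integrin CD11c, which dendritic cells and alveolar macrophages share, stood at 66.8 against 214 CPM. Cadm1 (214 against 217 CPM) and Batf3 (124 against 139 CPM) were close to level. The 16 cells held a median of 5 UMIs of Xcr1 and Clec9a, against 10 in the others, 11 of them held at least 5, and they had a UMI of a median of 10.5 of the 15 identity genes, with a range of 0 to 15. The 16 are few, lie mostly in library 2 and include cells low in the identity genes, and 9 of them were within the upper limits of the filter. Since the rule asks for Xcr1 or Clec9a, mature cells that had lost both could not be among them.

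**Figure D4:**
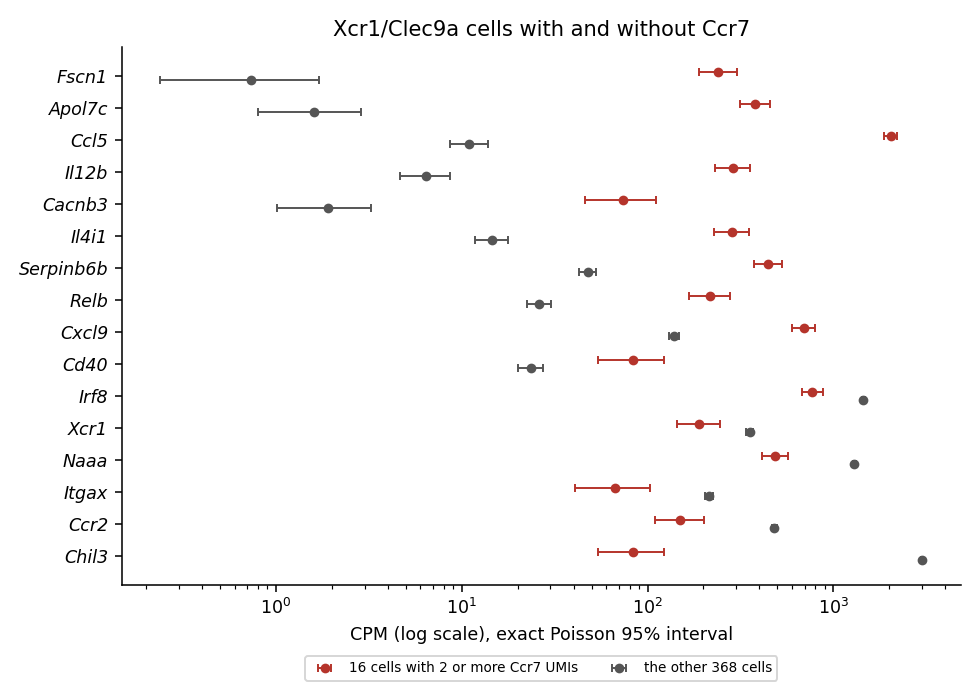
Level in CPM, on a log axis, of genes of the mature program and of the type 1 program in the 16 cells with at least 2 UMIs of Ccr7 and in the other 368 cells, with exact Poisson 95% intervals. Fscn1, Apol7c, Ccl5 and Il12b lie higher in the 16 cells, and Irf8 and Naaa lie lower. Xcr1 also lies lower, but it is a gene of the rule, so its level only describes the choice.

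Between libraries 1, 2, 3 and 7, 6492 genes with at least 100 UMIs in the cells were compared. A gene counted as different where the highest library stood 3-fold or more above the lowest and their intervals did not overlap, which held for 429 genes (6.61%). In 179 (2.76%) the same held, with the same highest library, in the cells with at least 5 UMIs of the rule genes. Library 1 lost most by this, from 201 genes in which it was highest to 43, against 83 to 47 in library 2, 102 to 64 in library 3 and 43 to 25 in library 7. Of 22 identity genes 0 differed, and of 21 class I genes only Cybb, a subunit of the NADPH oxidase, differed. Cybb and all 7 C1q macrophage genes tested were highest in library 1 over all cells and in library 2 in the cells with at least 5 UMIs, so none is among the 179. Of 5 endothelial genes 5 differed in both, of 6 fibroblast genes 5, and of 16 cell cycle genes 7 (Mki67, Tyms, Birc5, Cdca8, Stmn1, Tk1 and Ccna2). Levels in the next paragraphs are those in the cells with at least 5 UMIs, in the order of libraries 1, 2, 3 and 7, and the genes were chosen after their values had been seen. The libraries are not tied to samples, so model, animal and handling cannot be told apart in these differences.

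Library 1 stood out by Serpina3g, a serine protease inhibitor that interferon gamma induces, at 129.8, 24.0, 3.35 and 11.3 CPM, with a UMI in 37.5%, 5.15%, 6.38% and 10.5% of the cells. In the Cd209a cells it stood at 41.4, 4.38, 5.11 and 25.8 CPM, with a UMI in 27.5%, 5.03%, 4.17% and 15.3% of them, so library 1 was highest there as well. In the cells with Cd3e it stood at 26.1, 17.6, 10.1 and 44.4 CPM, with library 7 highest. Cxcl9, a chemokine that draws CXCR3+ T cells, stood at 306, 93.2, 143 and 12.5 CPM with a UMI in 23.4%, 8.09%, 17.0% and 13.2% of the cells and in 0.702%, 0.418%, 0.926% and 1.33% of the cells with Cd3e. Its level rested on few cells, with 49.3%, 81.2%, 53.9% and 50% of the UMIs of a library in 1 cell.

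Library 3 stood highest for several genes. Nfkbiz, a regulator of NF-kappaB, stood at 49.0, 35.0, 264 and 48.9 CPM, and in the Cd209a cells at 307, 452, 780.5 and 273 CPM. Cd83, a marker of activated dendritic cells, stood at 368, 458, 1137 and 361 CPM, and in the Cd209a cells at 366, 483, 888 and 358 CPM. Library 3 was thus highest in both populations for both genes. Icam1, the ligand of LFA-1, stood at 102, 60.9, 233 and 50.2 CPM, Nlrp3, the inflammasome sensor, at 27.4, 36.5, 90.5 and 17.6 CPM and Il1b at 121, 163, 469 and 92.8 CPM, with library 3 highest each time. Nr4a3, a nuclear receptor induced within hours of stimulation, stood at 23.1, 94.7, 161 and 18.8 CPM, and in the Cd209a cells at 191, 92.8, 180.03 and 161 CPM, where library 1 was highest and the order differed. Ier3, an immediate-early gene, went the other way at 19.5, 45.7, 13.4 and 95.3 CPM, lowest in library 3 and highest in library 7.

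A second set of genes was highest in library 3 and lowest in library 1. Pcdh7, a protocadherin, stood at 2.88, 17.5, 52.5 and 13.8 CPM, with a UMI in 6.25%, 17.6%, 51.1% and 13.2% of the cells and in 0%, 0.837%, 0.463% and 0% of the cells with Cd3e, and at 0, 0.438, 2.05 and 0.698 CPM in the Cd209a cells. Timd4, the phosphatidylserine receptor TIM-4 that takes up apoptotic cells, stood at 18.03, 69.2, 129.5 and 50.2 CPM, with a UMI in 21.9%, 41.9%, 66.0% and 31.6% of the cells and in 0 of the cells with Cd3e in each library. In the Cd209a cells Timd4 stood at 44.2, 13.1, 16.4 and 24.4 CPM, with library 1 highest. Ltb4r1, a receptor for the lipid mediator leukotriene B4, stood at 7.93, 55.9, 109 and 42.6 CPM, and in the Cd209a cells at 68.9, 129.98, 164 and 133 CPM, where library 1 was also lowest. All 3 genes had libraries 2 and 7 between the others in the Xcr1 cells, and whether the order differs between the populations was not tested.

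Library 7 stood lowest in cell cycle genes. Stmn1 stood at 395, 291, 404 and 52.7 CPM, Mki67, a mark of dividing cells, at 164, 113, 211 and 56.4 CPM and Pclaf, which binds PCNA, at 215, 128, 151 and 16.3 CPM. Stmn1 was lowest in library 7 in the Cd209a cells too (527, 178, 217 and 128 CPM) and in the cells with Cd3e (417, 482, 375 and 117 CPM). In library 7, 7 of these 38 cells were cycling cells, a share of 18.4% (95% interval, Clopper-Pearson, 7.74 to 34.3). Highest in library 7 stood Gm26802, at 2.88, 17.1, 24.6 and 80.2 CPM.

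Some differences lay in markers of other cell types or rested on 1 cell. Mgp, a matrix protein of fibroblasts and smooth muscle, stood at 22.4, 367, 27.9 and 7.52 CPM, with 48.6% of its UMIs in library 2 in 1 cell. In cells with Cd3e it stood at 5.30, 1507, 715 and 0.889 CPM. In the Cd209a cells it stood at 10.6, 699, 406 and 10.5 CPM. Library 2 was highest in all of these, and library 3 was high in the Cd209a cells and the cells with Cd3e but not in the Xcr1 cells. Scgb1a1, the club cell secretoglobin, stood at 133, 361, 1075 and 61.4 CPM, with 62.4% of its UMIs in library 3 in 1 cell. Of Cxcl10 in library 3 83.9% of the UMIs lay in 1 cell, of Hmox1, heme oxygenase, in library 7 95.5%, and of the smooth muscle actin Acta2 in library 1 100%. The source of these transcripts was not tested.

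**Figure D5:**
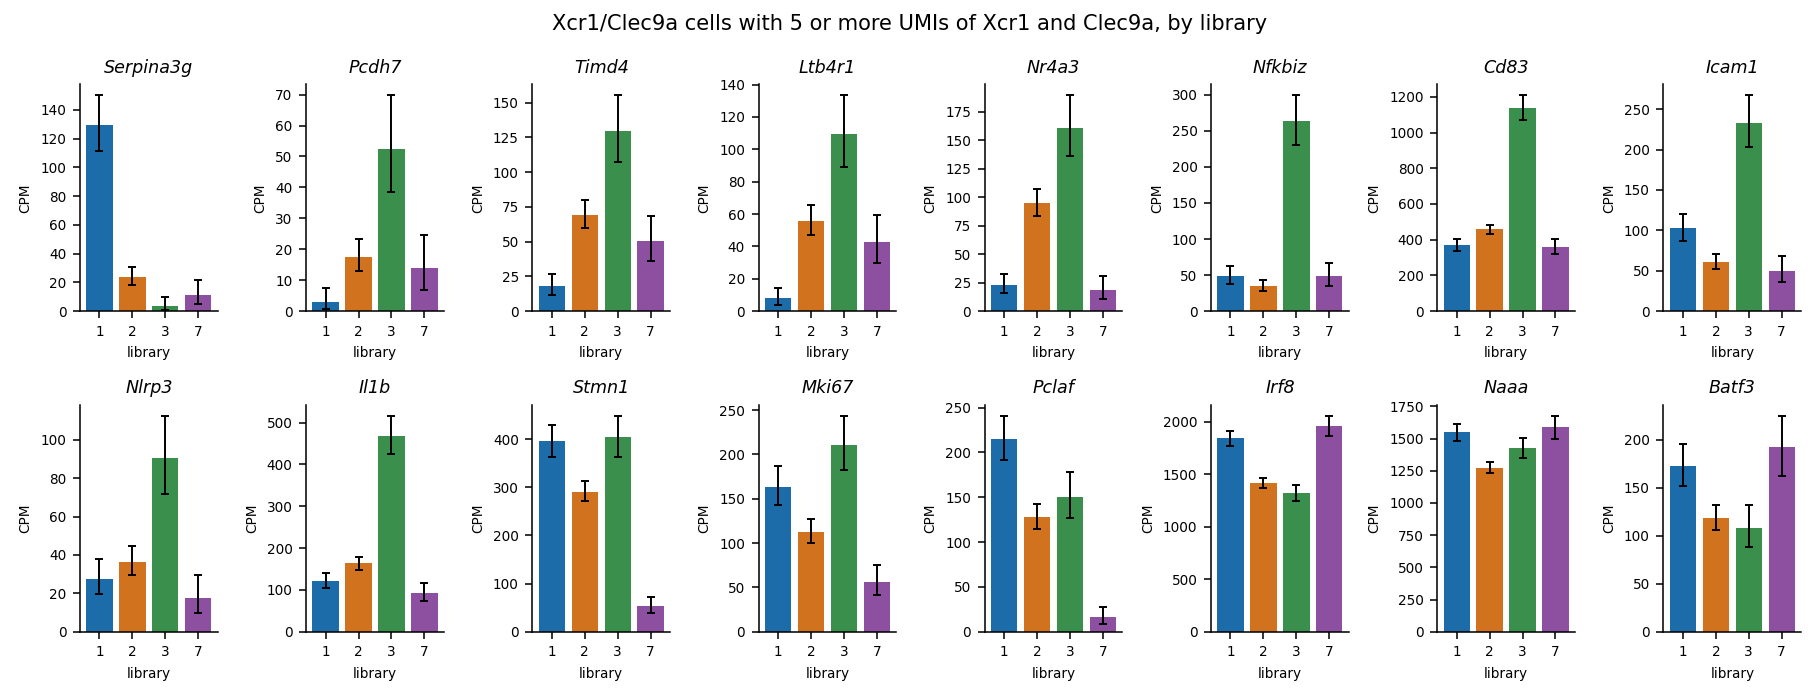
Bars give the level in CPM, from 0, of 16 genes in the Xcr1 cells with at least 5 UMIs of the rule genes in libraries 1, 2, 3 and 7, with exact Poisson 95% intervals. Serpina3g is highest in library 1, Timd4, Nfkbiz and Cd83 in library 3, Stmn1 and Mki67 are lowest in library 7, and the identity genes Irf8, Naaa and Batf3 differ less.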

How the data were processed

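The deposited matrix holds UMI counts per gene and barcode (31053 genes, 37344 barcodes), which the authors made with Cell Ranger (3.1.0 in the file header) and STAR on mm10, per the labels and the study's methods. The authors' filtering of cells kept cells within 2 standard deviations of the mean, and the deposited matrix still holds cells outside these limits. Here counts were summed over the cells of a population and divided by their total (CPM), with scipy 1.17.1, pandas 2.3.3 and numpy 2.4.6 under Python 3.11.15, and drawn with matplotlib 3.10.9. Levels carry exact Poisson 95% intervals and ratios exact conditional intervals. For calls, rankings, log2 ratios and ratios to a count of 0, every count under 3 was raised to a floor of 3. The matrix pools libraries whose groups are not given, so it is 1 sample and no test was made. The steps were tested on simulated data. The members and gene lists were chosen with earlier results of these data known. Named genes were those of the lists, the 15 highest and 15 lowest ratios with 1 direction in libraries 1, 2, 3 and 7, and genes of highest level. Alternatives changed the limits of the rule, the fold, the least UMIs per gene, the scaling, the depth per cell and the libraries used. Libraries 1, 2, 3 and 7 were not set against libraries 4, 5 and 6, which held 5 cells. Clec7a and Ifi30 were not analysed here.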

Additional observations from a re-analysis of the deposited data

How the results depend on the processing

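The number of cells followed the rule: 287 at 5% mitochondrial UMIs, 556, 332 and 287 at 1, 3 and 5 UMIs of Xcr1 and Clec9a, 306 with both genes, 572 with no gene required at 0, 280 within the filter's limits, and 219 to 384 leaving out a library (219 without library 2). The 15 identity genes summed to 6549 CPM, and under the same settings to 6893, 5221, 7072, 7331, 7200.5, 6376 and 6999.8 CPM. The sum was 6460 CPM with 1 UMI of MHC class II, 7665 with no UMI of Cd3e, Cd79b, S100a8, C1qa, Sftpc and Hbb-bt, 6386 in libraries 4, 5 and 6 alone, 6905 with libraries weighted equally, 6676 thinned to 2000 UMIs a cell, and 6264 to 6896 leaving out a library. Against Cd209a cells, the 337 higher and 528 lower genes became 173 and 272 at a fold of 3, 644 and 984 at 20 UMIs and 187 and 301 at 300 UMIs. Over 126 named genes and 12 settings, 1448 of the log2 ratios kept direction and call, 50 fell under the limit and 14 reversed. Those 14 were Lamp3 0.27, Sftpc 0.75, Sftpa1 0.091, Scgb1a1 0.74, Scgb3a2 1.21 and Inmt 0.053 within the limits, Ccl5 -1.48 and Mertk -0.055 at 5 UMIs, and Gbp2 -0.53 and -0.55 at 3 and 5 UMIs, and, leaving out a library, Scgb1a1 (-4.98 to 0.49) and Scgb3a2 (-4.02 to 0.85) without library 7, Fscn1 (-0.34 to 2.30) without library 2 and Gbp2 (-0.095 to 2.62) without library 1. Of 429 genes that differed between libraries, 191, 234, 283 and 235 did without library 1, 2, 3 or 7, where fewer libraries are compared. The cycling share of 27.3% was 21.4% at 1 UMI of the rule genes and 16.1% within the limits. The share with Ccr7, Ccl22 and Fscn1 was 10.8%, and that with Ccr7 alone 2.03%, with no UMI of the other types, and the latter 1.83% to 5.30% leaving out a library, lowest without library 2. Within the limits Irf8 stood at 345, 749, 1168 and 1631 CPM with 1, 2, 3 to 4 and 5 or more UMIs of the rule genes. The cause of these shifts was not tested. The alternatives with at least 5 UMIs, the Ccr7 class and the comparison between libraries were chosen after seeing the data. No paired analysis was possible because the matrix carries no group or replicate number. Its libraries pair the Xcr1 with the Cd209a cells, but are not tied to separate samples, so only direction within each library is given.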

Other observations

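The rule left out barcodes that met its other limits. Of 572 with at least 2 UMIs of Xcr1 and Clec9a that met the mitochondrial and MHC class II limits, 141 had a UMI of Siglech, 54 of Cd209a and 16 of Cd79a. The 141 had a median of 14 of the 15 identity genes, with Irf8 at 1446 CPM and Xcr1 at 357 CPM, and 87 of them had 1 UMI of Siglech. The 384 cells had a median of 13. By library, 16, 63, 23 and 35 of the 141 lay in libraries 1, 2, 3 and 7. Their Ly6d, a plasmacytoid marker, stood at 83.3 CPM against 0.281 CPM in the cells kept. The 54 barcodes with Cd209a had a median of 5 of the 15 genes. Without a gene required at 0, the 572 barcodes gave a sum of the 15 genes of 6376 CPM, against 6549 CPM in the 384.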
